A study of Mus musculus with 16 samples.

Results

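Transcripts of 10 regulators of cardiac energy metabolism were followed in the right ventricular (RV) and left ventricular (LV) free walls of mice with a banded pulmonary artery and of sham-operated mice. The genes were chosen by name as a known regulatory network, with earlier results of these data known. They include the coactivators Ppargc1a and Ppargc1b and the estrogen-related receptors Esrra, Esrrb and Esrrg. The others are the receptors Ppara, Ppard and Rxra and the mitochondrial regulators Nrf1 and Tfam. All 10 were found among the 23946 genes of the table, and all 10 were among the 12100 genes tested, those that reached 1 FPKM in 4 or more of the 16 libraries. FPKM, fragments per kilobase of transcript and per unit of sequenced fragments, is a level per transcript length.

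The animals were adult male FVB mice, an inbred strain, aged 10 to 13 weeks. The groups were RV banded, RV sham, LV banded and LV sham, with 4 libraries of polyA RNA each. The band narrows the vessel that leaves the right ventricle and so raises its pressure load. The labels write PS where the protocol writes banding, and PS was read as banded. Values are given below for libraries 1, 2, 3 and 4 of a group in that order, the banded ones numbered here by the rising order of the numbers in their labels. The labels do not say whether RV and LV libraries with the same number came from the same animal, whether animals were pooled, or how long the band had been in place. Nothing in the labels says that the 4 libraries of a group came from separate animals, so p-values reflect a spread among libraries that could be technical.

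PGC1 coactivators do not bind DNA themselves. They dock on nuclear receptors, among them the estrogen-related receptors (ERR) and the peroxisome proliferator-activated receptors (PPAR) with their partner RXR, and on NRF1, and switch on genes for fatty acid oxidation and respiration. NRF1 in turn drives genes such as Tfam, whose protein packages mitochondrial DNA and acts as a factor in its transcription. In the heart, an organ that runs mostly on fatty acids, this network sets the capacity for oxidative metabolism.

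Promoter windows from RefSeq (GRCm38.p6, 300 bases, most of them before the annotated start) are shown for 4 members, because they hold a motif of another factor of this network or, in Ppargc1a, of its cyclic AMP input. Windows of 9 members, 15 in all, were searched on both strands. Positions are counted from the annotated start as 0. The motifs were chosen with these windows in view, so the matches describe the sequences only. Capitals mark the match. In Esrra (chr19:6921759-6922058, minus strand) it is an NRF1 core, GCATGCGC, which begins at position -34. This core occurs in 2.71% of all 32851 windows in the RefSeq table.

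Esrra: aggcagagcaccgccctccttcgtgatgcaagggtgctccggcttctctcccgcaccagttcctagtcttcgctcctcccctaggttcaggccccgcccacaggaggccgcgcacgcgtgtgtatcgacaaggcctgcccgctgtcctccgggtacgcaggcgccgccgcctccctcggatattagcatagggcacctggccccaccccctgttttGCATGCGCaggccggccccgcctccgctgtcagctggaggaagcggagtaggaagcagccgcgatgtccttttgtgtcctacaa

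In Ppara (chr15:85735526-85735825, plus strand) it is the full NRF1 palindrome, searched with one base of its middle left free, at position -31. It overlaps the core here on both strands, and with any base in that place it occurs in 4.603% of windows.

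Ppara: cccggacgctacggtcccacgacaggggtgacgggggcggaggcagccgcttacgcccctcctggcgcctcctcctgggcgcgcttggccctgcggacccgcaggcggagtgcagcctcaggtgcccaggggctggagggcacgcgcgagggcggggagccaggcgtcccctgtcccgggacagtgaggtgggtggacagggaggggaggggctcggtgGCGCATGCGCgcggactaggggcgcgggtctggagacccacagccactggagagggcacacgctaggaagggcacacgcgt

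In Tfam (chr10:71237995-71238294, minus strand) it is CCGGAAG, a site of the GABP type (GABP is also known as NRF2), at position -47. It occurs in 8.86% of windows.

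Tfam: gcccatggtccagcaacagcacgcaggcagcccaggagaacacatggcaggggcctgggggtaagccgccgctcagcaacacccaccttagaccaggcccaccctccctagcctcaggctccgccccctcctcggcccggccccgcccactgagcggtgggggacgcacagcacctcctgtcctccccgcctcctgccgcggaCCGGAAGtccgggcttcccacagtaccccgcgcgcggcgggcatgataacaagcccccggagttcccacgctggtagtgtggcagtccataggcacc

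In Ppargc1a (chr5:51567676-51567975, minus strand) it is the core of a cyclic AMP response element, TGACG, read here on the other strand as CGTCA, at position -49. This short motif occurs in 20.8% of windows.

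Ppargc1a: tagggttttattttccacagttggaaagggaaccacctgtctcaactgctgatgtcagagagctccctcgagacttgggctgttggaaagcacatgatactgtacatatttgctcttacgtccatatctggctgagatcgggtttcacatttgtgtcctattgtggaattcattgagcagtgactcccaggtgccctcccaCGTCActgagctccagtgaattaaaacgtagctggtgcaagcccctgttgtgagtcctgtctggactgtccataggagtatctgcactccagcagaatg

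TGACG also occurred at positions -222 in Ppara, -158 and -117 in a window of Esrrb, and -4 in Ppard. A window of Rxra held the nuclear receptor core AGGTCA, found in 16.3% of all windows, at positions -87 and -48. None of the 15 windows held the full ERR site TCAAGGTCA (0.423% of all windows) or the spaced repeat of AGGTCA that PPAR binds with RXR (0.0396%). The windows of Nrf1 and Esrrg held none of the motifs searched.

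Esrra was by far the most abundant of the 10 in each group. It averaged 50.9 ± 8.24 FPKM in RV banded, 90.7 ± 11.04 in RV sham, 62.3 ± 8.50 in LV banded and 53.1 ± 6.44 in LV sham libraries (SD, n = 4 each). Its libraries did not overlap with those of the next member in any group. In RV banded libraries the order below it was Rxra (16.03 FPKM), Ppard, Ppargc1b, Ppara, Ppargc1a, Esrrb, Nrf1, Esrrg and Tfam (4.29 FPKM), and every pair of neighbours from Rxra down overlapped. In RV sham libraries Ppard (19.7 FPKM) came second and Esrrg (2.47 FPKM) last, again with overlap between all neighbours from Ppard down. In LV banded libraries Rxra (24.1 FPKM) came second, without overlap with Ppard at 14.1 FPKM, and Nrf1 (4.89 FPKM) last. In LV sham libraries Ppargc1b (18.04 FPKM) came second and Nrf1 (3.63 FPKM) last, and of the pairs below Esrra, Ppargc1a and Esrrb alone did not overlap.

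**Figure D1:**
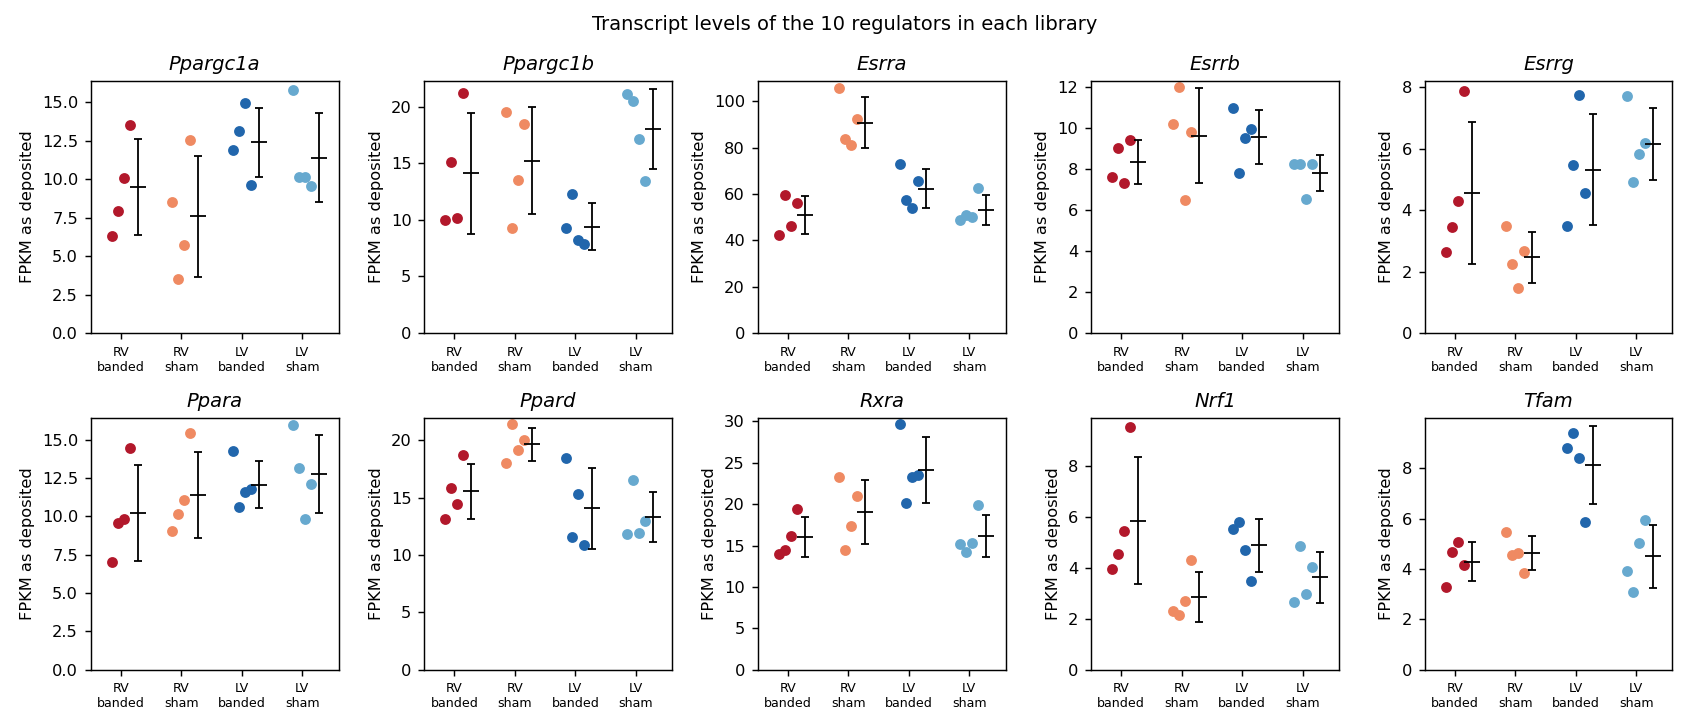
FPKM as deposited (vertical axes, each with its own range) of the 10 regulators in the 4 groups. Points are libraries, and the bar and whiskers beside them give the mean and SD of 4 libraries. Esrra in RV sham libraries, at 81.0 to 106 FPKM, lies above the other 3 groups, and Ppargc1b in LV banded libraries, at 7.84 to 12.3 FPKM, lies below LV sham.

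The libraries differed in depth and in scale. The files hold no counts. Fragments per library were estimated, from the smallest steps in the values, as 2.37e+06 to 5.64e+06 in RV banded, 3.65e+05 to 1.41e+06 in RV sham, 3.56e+06 to 9.73e+06 in LV banded and 2.11e+06 to 4.49e+06 in LV sham. The abundant ribosomal RNA precursor entry Rn45s was listed at 0 in 5 banded libraries (RV 3 and 4, and LV 1, 2 and 3) and at 44335 to 64943 FPKM in the other 11. The median-ratio scale factors of those 5 were 1.22 to 1.28, against 0.840 to 1.02 in the others. Each comparison was therefore fitted as deposited and again after division by the scale factor (rescaled). Over all genes tested the median log2 difference between banded and sham was 0.26 as deposited and 0.11 rescaled in the RV, and 0.33 and 0.01 in the LV. A gene is said to have risen or fallen only where it passed an adjusted p of 0.05 in the same direction on both scales (limma, Benjamini-Hochberg over 12100 genes). Nppa, the atrial natriuretic peptide gene that is induced by load, stood at 1568 to 2535 FPKM in RV banded against 40.0 to 91.9 in RV sham, and at 532 to 1147 in LV banded against 85.9 to 224 in LV sham.

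**Figure D2:**
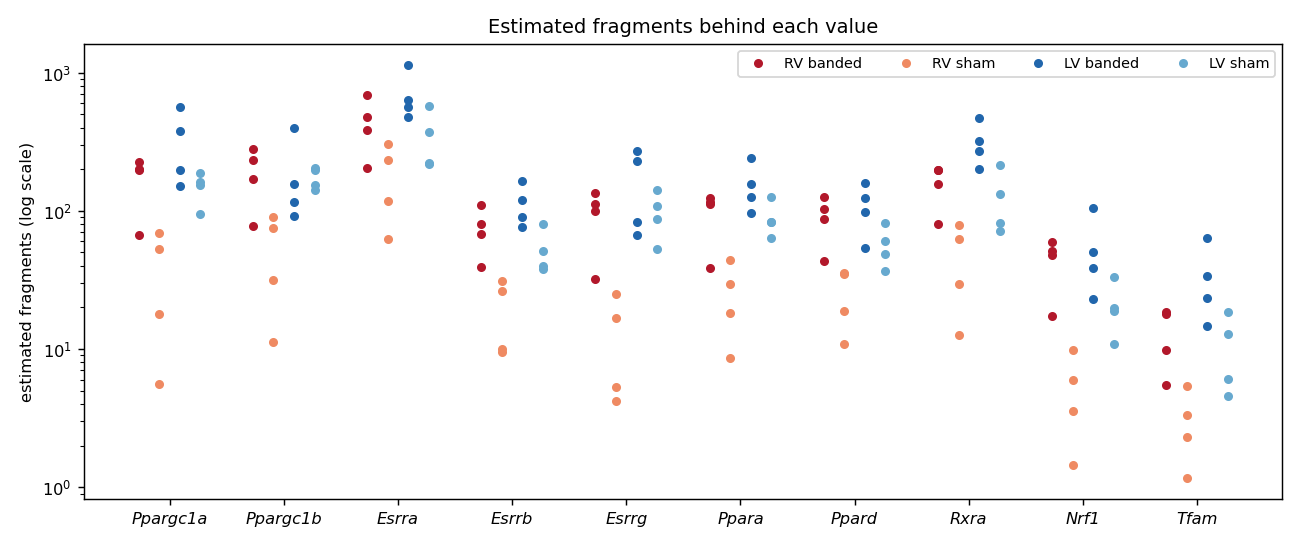
Estimated number of fragments behind each value (vertical axis, log scale) for the 10 regulators, with one point per library and a colour per group. RV sham libraries rest on the fewest, 1.16 to 5.40 for Tfam and 1.45 to 9.88 for Nrf1, while Esrra there rests on 62.5 to 304.

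In the RV, 1 of the 10 regulators fell with banding (Esrra) and 1 rose (Nrf1), where 15.5% of all genes tested passed on both scales, 10.5% higher and 4.93% lower. The median log2 difference of the 10 was -0.14 as deposited and -0.32 rescaled, with 3 of 10 above 0 on either scale. In the LV, Ppargc1b fell and none rose, where 2.74% of all genes passed, 2.44% higher and 0.298% lower. The median of the 10 was 0.17 as deposited and -0.22 rescaled, with 7 and 3 of 10 above 0. In bulk tissue, fewer cells of a type and less RNA per cell cannot be told apart.

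**Figure D3:**
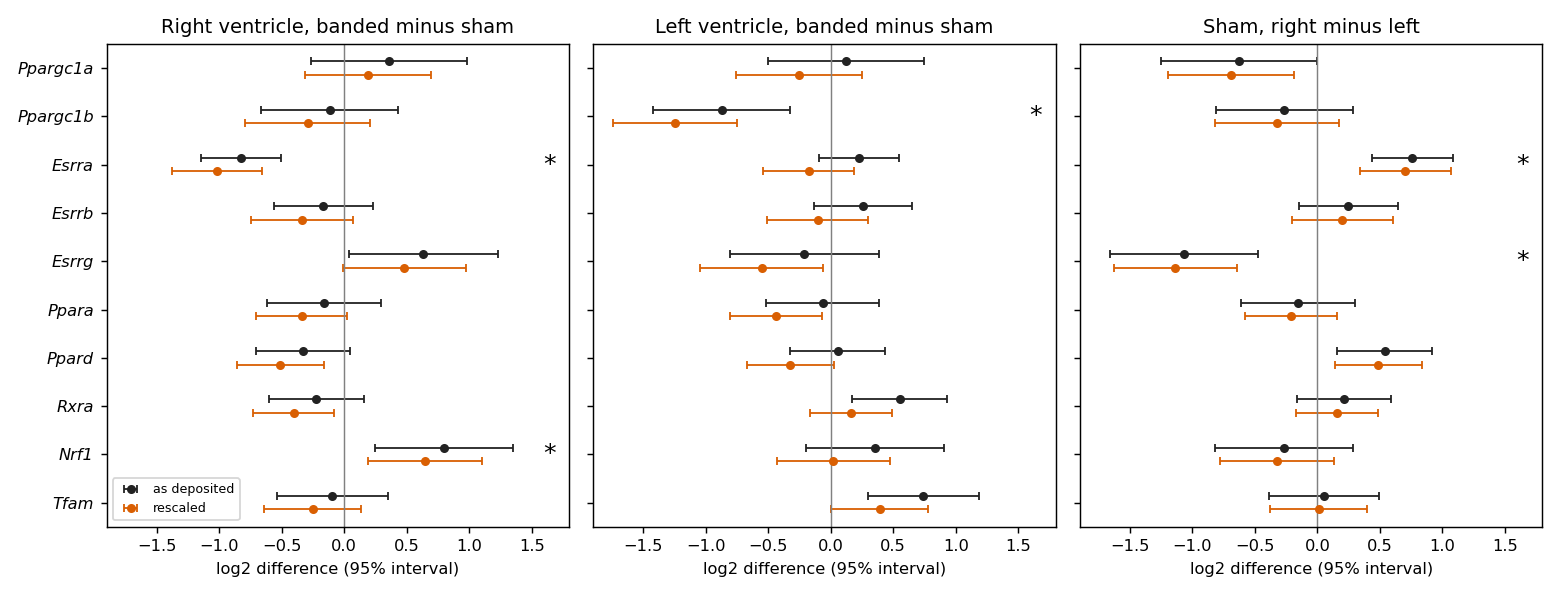
Log2 difference of FPKM + 1 (horizontal axes) with its 95% interval from limma for each regulator, as deposited (black) and rescaled (orange), for banded minus sham in the RV and the LV and for sham RV minus sham LV. Asterisks mark genes past an adjusted p of 0.05 in the same direction on both scales: Esrra and Nrf1 in the RV, Ppargc1b in the LV, and Esrra and Esrrg between sham ventricles.

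Ppargc1a, the coactivator best known for driving mitochondrial biogenesis, did not pass in either ventricle. It stood at 6.34, 7.93, 10.1 and 13.5 FPKM in RV banded libraries, against 8.54, 3.49, 5.72 and 12.6 in RV sham. The groups overlapped across most of their range, and the log2 difference was 0.36 (95% interval -0.26 to 0.98, adjusted p = 0.402) as deposited and 0.19 rescaled. In the LV it stood at 11.9, 13.1, 14.9 and 9.63 FPKM in banded libraries, against 15.8, 10.2, 10.2 and 9.55 in sham libraries. The highest LV value was in sham library 1, and the difference was 0.12 (95% interval -0.50 to 0.74) as deposited and -0.25 rescaled. The authors' deposited table of group values gives Ppargc1a at 15.5 FPKM in LV banded and 22.4 in LV sham, whereas the libraries average 12.4 and 11.4, so the direction there differs from that of the libraries. For the 10 regulators the group values in the authors' deposited table were 0.962 to 2.07 times the mean of the libraries.

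Ppargc1b, the second coactivator of the family, fell in the LV of banded mice. It stood at 9.30, 12.3, 8.19 and 7.84 FPKM in LV banded libraries, against 21.1, 20.5, 17.2 and 13.4 in LV sham. All banded values lay below all sham values, with means of 9.41 ± 2.04 and 18.04 ± 3.51 FPKM (SD, n = 4 each). The log2 difference was -0.87 ± 0.26 (SE, adjusted p = 0.0332) as deposited and -1.24 (adjusted p = 0.0137) rescaled, and it stayed below 0 under each of the other scalings tried and without each library in turn. The call on both scales was lost in 6 of 16 cases when a library was left out (LV banded 1, 3 and 4, and LV sham 1, 2 and 3), with adjusted p up to 0.101. With only the libraries that list Rn45s, which leave 1 LV banded library assumed to vary like the other groups, the difference was -1.09 with an adjusted p of 0.928. In the RV, Ppargc1b stood at 9.96, 15.1, 10.1 and 21.2 FPKM in banded libraries, against 19.5, 9.32, 13.5 and 18.5 in sham libraries. These overlapped fully, with a difference of -0.11 (95% interval -0.66 to 0.43). The difference between the RV and LV effects was 0.76 (95% interval -0.02 to 1.53, adjusted p = 0.289) as deposited and 0.95 (adjusted p = 0.102) rescaled.

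A ratio of 2 genes within a library depends little on the scale of that library. It can still carry a trend of the library with transcript length and base composition, for which the ratios were not corrected. The log2 ratio of Ppargc1a to Ppargc1b was 0.37 ± 0.30 in LV banded and -0.62 ± 0.25 in LV sham libraries (SD, n = 4 each), without overlap. The difference of 0.99 had p = 0.0286 in an exact two-sided permutation test, the smallest that 4 against 4 allows, and 0.0857 after adjustment over 6 such tests. In the RV the ratio was -0.51 ± 0.36 in banded and -0.98 ± 0.31 in sham libraries (exact permutation p = 0.114, n = 4 each), and the ranges overlapped.

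Esrra encodes ERR alpha, a PGC1 partner that drives respiratory chain and fatty acid oxidation genes, and it fell in the banded RV. It stood at 42.1, 59.7, 46.0 and 56.0 FPKM in RV banded libraries, against 106, 83.7, 81.0 and 92.5 in RV sham. The highest banded value lay well below the lowest sham value. The log2 difference was -0.83 ± 0.15 (SE, adjusted p = 0.0023) as deposited, a 1.77-fold lower level, and -1.02 (adjusted p = 0.00106) rescaled, a 2.02-fold lower level. It passed on both scales without each of the 16 libraries in turn, and with the libraries that list Rn45s alone, where it was -0.83 (adjusted p = 0.0361). The smallest size among the alternatives was -0.53 (adjusted p = 0.00868), with every library brought to the same sum, a scaling under which the median of all genes stood at 0.50.

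The LV gave Esrra values of 72.8, 57.4, 53.7 and 65.5 FPKM in banded libraries, against 48.7, 50.9, 50.04 and 62.7 in sham libraries. These overlapped, and the sign of the difference depended on the scale, with 0.22 (95% interval -0.10 to 0.55) as deposited and -0.18 rescaled. The RV effect minus the LV effect was -1.05 ± 0.22 (SE, adjusted p = 0.00689) as deposited and -0.84 (adjusted p = 0.0531) rescaled. No regulator passed on both scales in this comparison, where 3.98% of all genes did. By limma without adjustment 4 of the 10 had a p under 0.05 as deposited, and the share of all genes under that cut was not counted. Esrra was the single one past the threshold as deposited, where 6.06% of all genes were, and with the libraries that list Rn45s alone its value was -1.14 (adjusted p = 0.164).

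Esrrb, a related receptor, averaged 8.35 ± 1.05 FPKM in RV banded and 9.64 ± 2.30 in RV sham libraries, and 9.56 ± 1.32 in LV banded and 7.81 ± 0.86 in LV sham libraries (SD, n = 4 each). Both pairs overlapped. The differences were -0.17 (95% interval -0.56 to 0.23) in the RV and 0.26 (95% interval -0.13 to 0.65) in the LV as deposited.

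Esrrg encodes ERR gamma, which shares target genes with ERR alpha in oxidative tissue. It stood at 2.64, 3.46, 4.29 and 7.89 FPKM in RV banded libraries, against 3.48, 2.24, 1.48 and 2.66 in RV sham. Banded library 4 was highest and the groups overlapped. The difference of 0.63 (95% interval 0.04 to 1.23, adjusted p = 0.122) as deposited and 0.48 (adjusted p = 0.152) rescaled did not pass. It passed with every library brought to the same sum (0.86, adjusted p = 0.0268). In the LV it stood at 3.49, 5.48, 7.75 and 4.55 FPKM in banded libraries, against 7.73, 4.91, 5.84 and 6.21 in sham libraries, with a difference of -0.21 (95% interval -0.81 to 0.38).

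Esrra was also set against Esrrg within each library. The log2 ratio of Esrra to Esrrg was 3.29 ± 0.48 in RV banded and 4.75 ± 0.21 in RV sham libraries (SD, n = 4 each), without overlap. The difference of -1.46 had an exact two-sided permutation p of 0.0286, the smallest possible, and 0.0857 after adjustment over 6 tests. In the LV the ratio was 3.36 ± 0.59 in banded and 2.92 ± 0.30 in sham libraries (exact permutation p = 0.229, n = 4 each). Levels of Esrrg in RV sham rest on an estimated 4.18 to 25.0 fragments per library.

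**Figure D4:**
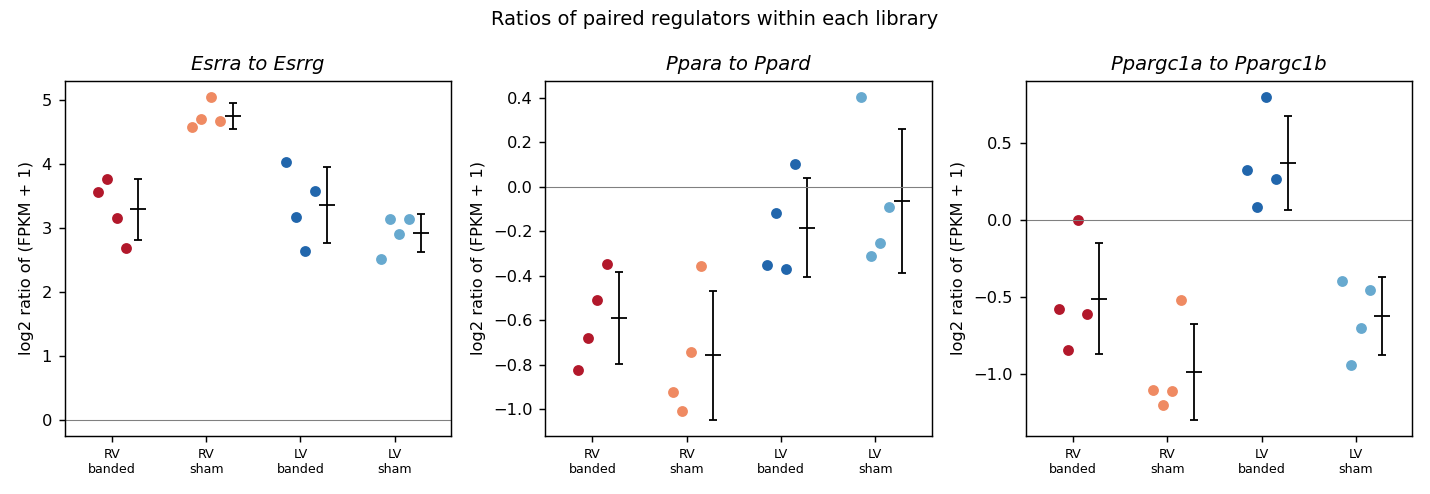
Log2 ratio of FPKM + 1 between paired regulators within each library (vertical axes, each with its own range), with the mean and SD of 4 libraries beside the points. The ratio of Esrra to Esrrg is lower in RV banded (2.68 to 3.76) than in RV sham (4.57 to 5.05) libraries, and that of Ppargc1a to Ppargc1b is above 0 in LV banded and below 0 in LV sham libraries.

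Ppara, the receptor that responds to fatty acids and is the main PPAR of cardiac fatty acid oxidation, did not pass in either ventricle. It stood at 7.0001, 9.53, 9.85 and 14.5 FPKM in RV banded libraries, against 9.04, 10.1, 11.05 and 15.4 in RV sham. In the LV it stood at 14.3, 10.6, 11.6 and 11.8 FPKM in banded libraries, against 15.98, 13.1, 9.85 and 12.1 in sham libraries. Both pairs of groups overlapped, with differences of -0.16 (95% interval -0.61 to 0.29) in the RV and -0.06 (95% interval -0.52 to 0.39) in the LV as deposited.

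Ppard, the PPAR expressed broadly in muscle, stood at 13.2, 15.9, 14.4 and 18.7 FPKM in RV banded libraries, against 18.04, 21.4, 19.2 and 20.1 in RV sham. As deposited one banded library lay within the sham range, and rescaled the groups did not overlap. The difference was -0.33 (adjusted p = 0.203) as deposited and -0.51 (adjusted p = 0.0386) rescaled, so it passed rescaled but not as deposited. Rescaled, 19.9% of all genes passed in the RV, those past on both scales included. In the LV, Ppard averaged 14.1 ± 3.52 FPKM in banded and 13.3 ± 2.2004 in sham libraries (SD, n = 4 each), with a difference of 0.06 (95% interval -0.32 to 0.44). The authors' deposited table gives 13.5 FPKM in LV banded and 14.9 in LV sham, the other direction. The log2 ratio of Ppara to Ppard differed by 0.17 in the RV and -0.12 in the LV between banded and sham libraries (exact permutation p = 0.343 and 0.571, n = 4 each).

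Rxra, the partner that PPARs need to bind DNA, stood at 29.6, 20.1, 23.3 and 23.5 FPKM in LV banded libraries, against 15.1, 14.2, 15.3 and 19.9 in LV sham. The groups did not overlap as deposited, but did rescaled. The difference was 0.55 (adjusted p = 0.0482) as deposited and 0.16 (adjusted p = 0.620) rescaled, so it passed as deposited but not rescaled. As deposited, 14.6% of all genes passed in the LV, those past on both scales included. In the RV it averaged 16.03 ± 2.45 FPKM in banded and 19.0 ± 3.88 in sham libraries (SD, n = 4 each), with a difference of -0.22 (95% interval -0.60 to 0.16) as deposited and -0.40 (adjusted p = 0.0751) rescaled.

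Nrf1 encodes nuclear respiratory factor 1, which drives respiratory chain genes and Tfam, and it rose in the banded RV. It stood at 3.94, 4.57, 5.44 and 9.53 FPKM in RV banded libraries, against 2.30, 2.15, 2.70 and 4.31 in RV sham. Banded library 4 was far the highest of its group, and banded library 1 lay below sham library 4. The log2 difference was 0.80 ± 0.26 (SE, adjusted p = 0.0437) as deposited and 0.64 (adjusted p = 0.0443) rescaled. The RV sham values rest on an estimated 1.45 to 9.88 fragments, and the call on both scales was lost when any of 13 of the 16 libraries was left out, with adjusted p up to 0.147. The 3 libraries without which it held were RV sham 4 and LV sham 1 and 2. With the libraries that list Rn45s alone the difference was 0.47 (adjusted p = 0.450). In the LV, Nrf1 averaged 4.89 ± 1.04 FPKM in banded and 3.63 ± 1.01 in sham libraries (SD, n = 4 each), and the difference was 0.35 (95% interval -0.20 to 0.90). The authors' deposited table gives 5.75 FPKM in LV banded and 6.39 in LV sham.

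Tfam, the mitochondrial transcription factor downstream of NRF1, did not pass on both scales in either ventricle. It stood at 3.29, 4.67, 5.05 and 4.16 FPKM in RV banded libraries, against 5.47, 4.55, 4.64 and 3.86 in RV sham, with a difference of -0.09 (95% interval -0.53 to 0.35). The RV sham values rest on an estimated 1.16 to 5.40 fragments. In the LV it stood at 8.80, 9.39, 8.42 and 5.86 FPKM in banded libraries, against 3.92, 3.09, 5.02 and 5.95 in sham libraries. Of the LV banded libraries number 4 alone, the one of them that lists Rn45s, lay within the sham range. The difference was 0.74 (adjusted p = 0.0257) as deposited and 0.39 (adjusted p = 0.248) rescaled, so it too passed as deposited but not rescaled.

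Between the ventricles of sham mice, 2 of the 10 regulators differed, where 3.88% of all genes tested did. Esrra was higher in RV sham than in LV sham libraries, at 90.7 ± 11.04 against 53.1 ± 6.44 FPKM (SD, n = 4 each), with a log2 difference of 0.76 (adjusted p = 0.0163) as deposited and 0.70 (adjusted p = 0.0218) rescaled. Esrrg was lower, at 2.47 ± 0.83 FPKM in RV sham against 6.17 ± 1.17 in LV sham libraries, with -1.07 (adjusted p = 0.0425) and -1.13 (adjusted p = 0.0105). Neither gene's libraries overlapped between the sham ventricles. Fitted to the 8 sham libraries alone, Esrra had an adjusted p of 0.0541 and Esrrg of 0.0727, and with a correction of each library for its trend with transcript length and base composition (GC content) 0.137 and 0.0585. Under that correction the log2 differences were 0.36 for Esrra and -0.71 for Esrrg. With every library brought to the same sum Esrra was at 0.46 (adjusted p = 0.0514). These calls rest on the shared estimate of the spread and on the scaling. Without single libraries Esrra was lost in 2 of 16 cases (LV sham 1 and 3) and Esrrg in 10 of 16. Ppard was 0.54 higher (adjusted p = 0.0934) and Ppargc1a 0.62 lower (adjusted p = 0.235) in RV sham than in LV sham as log2 differences, and neither passed.

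Between the ventricles of banded mice no regulator passed on both scales, where 1.57% of all genes did. The share of all genes with an unadjusted p under 0.05 was not counted, and by limma 2 of 10 regulators had one as deposited. These were Tfam, at 4.29 ± 0.76 FPKM in RV banded against 8.12 ± 1.55 in LV banded libraries (-0.78, adjusted p = 0.0524), and Rxra, at 16.03 ± 2.45 against 24.1 ± 3.98 FPKM (-0.56, adjusted p = 0.108; SD, n = 4 each). Esrra differed by -0.29 (95% interval -0.61 to 0.03) and Esrrg by -0.22 (95% interval -0.82 to 0.37). The comparisons share their groups: the RV sham libraries that stand high for Esrra enter the RV banding comparison and the sham comparison alike.

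Genes of the network around the 10 regulators were counted by list, against 10.5% of all genes tested that rose and 4.93% that fell in the RV on both scales. Of 22 PGC1 coregulators and upstream kinases 1 rose and none fell in the RV, with a median of 0.36 as deposited and 0.17 rescaled. It was Mef2c, a muscle transcription factor, at 13.0 ± 8.01 FPKM in RV banded against 5.33 ± 1.98 in RV sham libraries (SD, n = 4 each). Of 8 other nuclear receptors 1 fell, Rxrg, an RXR of muscle, at 24.5 ± 5.001 against 37.4 ± 4.39 FPKM, with a log2 difference of -0.60 (adjusted p = 0.0272). Of 13 NRF partners and mitochondrial DNA maintenance genes 1 rose and 1 fell. Polrmt, the mitochondrial RNA polymerase, fell to 8.03 ± 2.31 FPKM in RV banded against 14.7 ± 1.41 in RV sham libraries (-0.84, adjusted p = 0.0136). Tfb1m, a mitochondrial ribosomal RNA methyltransferase, stood at 1.73 to 4.201 FPKM in RV banded against 0 to 2.31 in RV sham libraries (adjusted p = 0.0357). No gene on these 3 lists passed on both scales in the LV. The RV counts moved with the scaling. With every library brought to the same sum 9 of the 22 coregulators and kinases and 6 of the 13 NRF partners were higher, as were 4240 of all 12100 genes. Rescaled, 4 of the 8 other receptors were lower, as were 1101 of all genes.

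Targets of the receptors were counted in the same way. The ERR list was written with earlier results of these libraries known, so its counts are no independent evidence of a direction. Of 10 ERR target genes 2 fell and none rose in the RV, where 4.93% of all genes fell. All 10 lay below 0 on both scales, with a median of -0.21 as deposited and -0.41 rescaled. The median of all genes tested was 0.26 and 0.11, and their share below 0 was not counted. Slc25a4, the heart's ADP/ATP carrier, fell to 2949 ± 198 FPKM in RV banded against 4887 ± 504 in RV sham libraries (-0.73, adjusted p = 0.0111). Acadm, the medium-chain acyl-CoA dehydrogenase, fell to 338 ± 52.8 against 506 ± 91.0 FPKM (-0.58, adjusted p = 0.0211). Across the other scalings the list's median was not stable in sign. Under quantile normalization it was -0.11 with 0 genes past the threshold, and with length and GC content corrected for -0.60 with 8 of 10 lower. With every library brought to the same sum it was 0.04 with 1 lower. Of all genes tested 990, 962 and 352 were lower in that order. In the LV none of the 10 passed on both scales, and 9 of 10 lay above 0 as deposited and 5 rescaled. From 1 to 4 of the 10 were lower there when rescaled or under the other scalings, and none was higher. Of all genes tested 101 to 243 were lower under these.

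Of 27 PPAR target genes tested, out of 28 listed, 15 fell and 1 rose in the RV, where 4.93% of all genes fell and 10.5% rose, with a median of -0.58 as deposited and -0.77 rescaled. Acadm is also on this list. Ech1, an enzyme of peroxisomal and mitochondrial fatty acid oxidation, fell to 443 ± 70.5 FPKM in RV banded against 1459 ± 122 in RV sham libraries (-1.73, adjusted p = 1.30e-05). Ucp3, a mitochondrial uncoupling protein of muscle, fell to 5.16 ± 1.68 against 25.2 ± 5.97 FPKM (-2.10, adjusted p = 3.01e-05). Its paralog Ucp2 rose, to 24.2 ± 3.08 against 14.96 ± 5.56 FPKM (0.71, adjusted p = 0.0435). From 12 to 18 of the 27 were lower under each of the other scalings, where 352 to 990 of all genes tested were. In the LV 1 of the 27 rose and 1 fell on both scales, where 2.44% of all genes rose and 0.298% fell. The median was 0.06 as deposited and -0.26 rescaled. When rescaled or under the other scalings, from 6 to 8 of the 27 were lower and 1 higher. Of all genes tested 101 to 243 were lower under these and 146 to 295 higher. Ucp2 reached 31.2 ± 7.46 FPKM in LV banded against 10.3 ± 1.77 in LV sham libraries (log2 difference 1.498, adjusted p = 0.00133), and Pdk4, the kinase that shuts off pyruvate dehydrogenase, fell to 66.2 ± 33.4 against 152 ± 39.1 FPKM (-1.27, adjusted p = 0.0164). In the difference of the ventricles' banding effects 9 of the 27 were lower and none higher on both scales, against 3.45% of all genes lower. This count was 5 lower and 1 higher with quantile normalization, 7 lower with length and GC content corrected for, and 4 lower and 2 higher, with a median of 0.035, with every library brought to the same sum. Between the sham ventricles 5 of the 27 were higher in the RV and none lower on both scales, where 3.88% of all genes differed in either direction. This sham count moved with the scaling. It was 4 higher and 3 lower with quantile normalization (median -0.12). With every library brought to the same sum it was 1 higher and 4 lower (median -0.18). With length and GC content corrected for it was 4 higher and none lower (median 0.098). Of all genes tested 320, 120 and 146 were higher in that order, and 552, 861 and 197 lower. The sham libraries enter the difference of banding effects too. The list was written with earlier results of these libraries known, so its counts are no independent evidence of a direction.

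**Figure D5:**
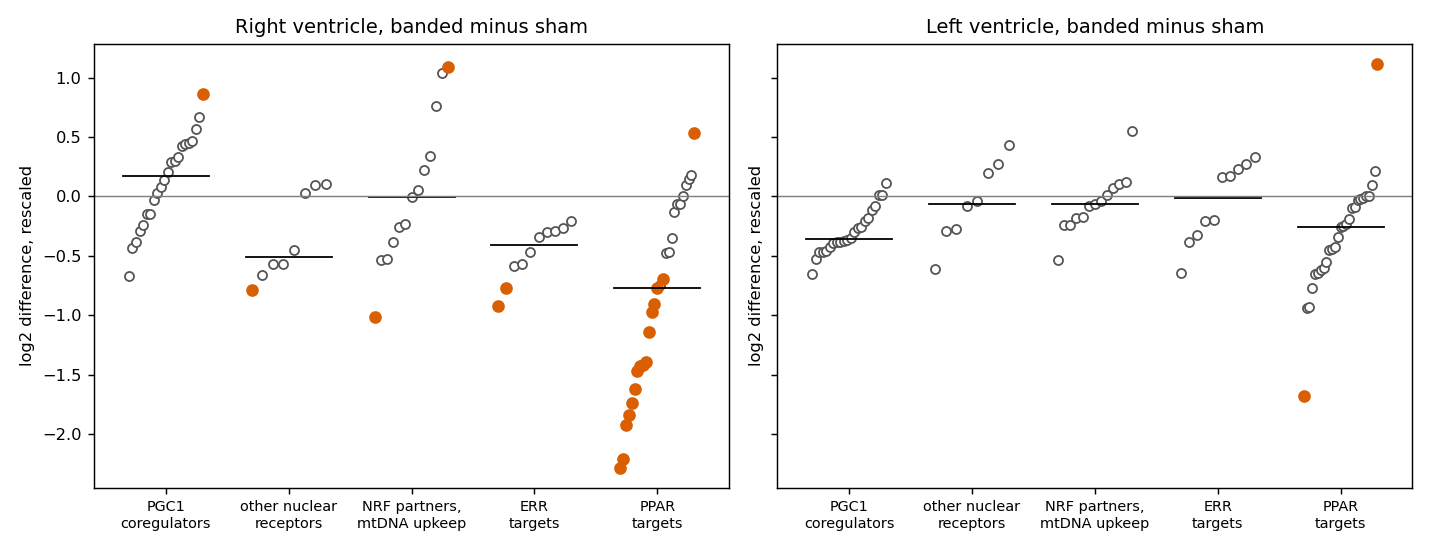
Rescaled log2 difference, banded minus sham (vertical axes), of the genes on 5 lists in the RV and the LV. Points are genes, filled where past an adjusted p of 0.05 in the same direction on both scales, and lines are list medians. In the RV 15 of 27 PPAR target genes are filled below 0, and in the LV 1 of 27.

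Markers of cell types moved with these groups. The summed level of 8 cardiomyocyte markers was 19178 to 27150 FPKM in RV banded against 30024 to 33566 in RV sham, and 40655 to 49009 in LV banded against 20232 to 31410 in LV sham. All 8 were detected. On both scales 1 of them rose and 3 fell in the RV, where 10.5% of all genes tested rose and 4.93% fell. In the LV 2 of the 8 rose and none fell, where 2.44% of all genes rose and 0.298% fell. In the RV the sums over 5 genes each were 202 to 272 against 154 to 186 for endothelial, 254 to 414 against 170 to 216 for fibroblast and 214 to 287 against 164 to 175 for mural markers, banded against sham. Leukocyte markers summed to 26.2 to 46.6 against 22.9 to 30.0 and mesothelial markers to 3.89 to 5.97 against 5.29 to 17.5 FPKM. Adipocyte markers summed to 11.4 to 34.7 against 22.0 to 32.2, with Ucp1 at 0 in all libraries, and pancreatic markers, foreign to the heart, to 65.7 to 155 against 636 to 2134, with Prss2 at 0. In the LV, again banded against sham, endothelial markers summed to 186 to 293 against 162 to 206, fibroblast markers to 292 to 589 against 158 to 257, mural markers to 155 to 298 against 126 to 182 and pancreatic markers to 24.8 to 58.9 against 88.3 to 2088 FPKM. Leukocyte markers there summed to 29.8 to 59.6 against 20.4 to 28.9, adipocyte markers to 23.2 to 37.1 against 9.06 to 16.5 and mesothelial markers to 3.62 to 5.18 against 2.48 to 7.41 FPKM, so that the leukocyte and adipocyte sums, like those of cardiomyocytes, fibroblasts and pancreas, did not overlap between LV banded and LV sham. All these sums are of FPKM as deposited, so they carry the differences in scale between libraries, and rescaled sums were not taken. Of the 2 adipocyte markers tested 1 rose on both scales in the LV, while none of 5 fibroblast and 5 leukocyte markers passed there. The LV median log2 difference was 0.50 as deposited and 0.14 rescaled for fibroblast markers, and 0.73 and 0.35 for leukocyte markers. The part of cell types in the differences of the regulators was not tested.

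Over the 16 libraries, on rescaled values, the genes whose pattern was most like that of Esrra were Kcnh2 (Pearson r = 0.95), a repolarizing potassium channel, and Btbd2 (r = 0.95). Kcnh2 averaged 18.6 FPKM in RV banded, 37.4 in RV sham, 24.0 in LV banded and 22.2 in LV sham. For Ppargc1b they were Ppm1j (r = 0.90) and Prkce (0.89), for Ppargc1a Smcr8 (0.91) and Crebl2 (0.87), and for Esrrg Qk (0.94) and Ubr3 (0.92). Those of Ppara were Perm1 (0.92), a regulator induced by PGC1 and ERR in muscle, and Lmo7 (0.86), and those of Rxra were Atp5a1 (0.88) and Samm50 (0.87), both mitochondrial. For Ppard they were Arhgef19 (0.91) and Ssbp4 (0.90), for Esrrb Asb10 (0.87) and Ccdc97 (0.86), for Nrf1 Atxn7 (0.85) and Whsc1 (0.85), and for Tfam Ppp1r11 (0.86) and Reep5 (0.86). Each r is the highest among all genes tested, over libraries that share group, depth and scale, and is given as a description. Among the 10 themselves, the highest r were between Esrra and Ppard (0.75), Esrrg and Ppargc1a (0.72) and Esrra and Esrrb (0.71), and the lowest was between Esrra and Nrf1 (-0.54).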

How the data were processed

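PolyA RNA-seq of 16 libraries in 4 groups was used as deposited. Per the submitters' processing notes, FastQC 0.11.5, STAR 2.5.3a, Cufflinks 2.2.1 with Cuffdiff, R 3.3.1 and the mm9 build were used. The gene annotation is not given in the sources used here. The deposited values are FPKM per gene and library, made by the authors, together with the authors' table of FPKM per group.

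From these, log2(FPKM + 1) was fitted with limma 3.58.1 (R 4.3.3) as 1 model of 4 group means with a trended prior, for the 12100 genes that reached 1 FPKM in 4 or more libraries. Fold changes are on that scale, which understates the change of low genes. Within each comparison all tested genes entered the Benjamini-Hochberg adjustment, and 0.05 was the threshold. The fit was repeated after division by a median-ratio scale factor per library (8211 genes at 1 FPKM or more in all libraries). Within-library ratios of 3 pairs of genes were tested in each ventricle by exact two-sided permutation. Python 3.11.15 and scipy 1.17.1 were used.

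FPKM give no depth. Fragments were estimated from 9888 single-transcript genes, taking the lowest cluster of FPKM times transcript length (GENCODE, another build) as 1 fragment and assuming a fragment length. The estimates rest on that assumption. The scripts were tested on simulated data.

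The members and the gene lists were chosen with earlier results of these data known. Named genes were the 10 members, up to 2 genes per direction with the smallest p from each list, the 2 genes most correlated with each member, Nppa and Rn45s. Alternatives were other pseudocounts, filters, scalings, a prior robust to outliers, separate fits of a comparison's own libraries, a block by library number, library weights, the libraries that list Rn45s, and omission of each library. A correction for transcript length and GC content, available for 12020 of 12100 genes, was added after the data were examined. Ppargc1b's promoter window was not used here.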

Additional observations from a re-analysis of the deposited data

Results flagged for a closer look

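In 40 sets of 4 libraries (10 regulators in 4 groups), 3 held a library whose distance to the nearest other was large against the range of its group, where chance gives about 1 in 20. All 3 were LV sham groups. Ppargc1a was highest in LV sham library 1, at 15.8 FPKM. Esrra was highest in LV sham library 4, at 62.7 FPKM. Esrrb was lowest in LV sham library 3, at 6.52 FPKM. The banding effect on Esrra differed between the ventricles by a log2 value of -1.05 (RV minus LV, limma, adjusted p = 0.00689) as deposited, and by -0.84 (adjusted p = 0.0531) rescaled.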

How the results depend on the processing

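The fall of Esrra in the RV kept its direction and passed under each alternative tried. Other calls did not hold throughout, and the cause was not tested. In the RV the number of regulators past the threshold was 1 in place of 2 without a filter, with quantile normalization, in a fit to the RV libraries alone, with library weights, with the libraries that list Rn45s and with the correction for length and GC content. In the LV it was 0 in place of 1 without a filter and with the libraries that list Rn45s. Between sham ventricles it was 1 in place of 2 without a filter and with every library brought to the same sum, and 0 in a fit to the sham libraries alone, with library weights and with the length and GC correction. Between banded ventricles it was 1 in place of 0 with library weights and with the length and GC correction. For the difference of the effects it was 1 in place of 0 with a filter at 5 FPKM and 2 with every library brought to the same sum (Ppargc1b and Esrrg).

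With every library brought to the same sum, the log2 difference reversed in the RV for Ppargc1b (0.17), Esrrb (0.10), Ppara (0.11), Rxra (0.061) and Tfam (0.15), and in the LV for Ppargc1a (-0.30), Esrra (-0.22), Esrrb (-0.15), Ppard (-0.37) and Nrf1 (-0.015). For the difference of effects it reversed for Esrrb (0.25), Ppara (0.60) and Ppard (0.32), between sham ventricles for Esrrb (-0.023), Rxra (-0.074) and Tfam (-0.19), and between banded ventricles for Ppargc1a (0.027), Esrra (0.15), Esrrb (0.23), Esrrg (0.14) and Ppara (0.16). In the LV, Ppargc1a, Esrra, Esrrb and Ppard were also reversed when rescaled (-0.25, -0.18, -0.11 and -0.32), with quantile normalization (-0.27, -0.31, -0.11 and -0.34) and with the length and GC correction (-0.28, -0.014, -0.046 and -0.25, and Nrf1 at -0.0033). Ppara reversed for the difference of effects when rescaled (0.10), with quantile normalization (0.13) and with the length and GC correction (0.031, and Ppard at 0.14). That correction also reversed Ppargc1a in the RV (-0.22) and Rxra between sham ventricles (-0.058), and quantile normalization Esrra between banded ventricles (0.012). Library weights reversed Ppara in the LV (0.0028), Ppargc1a in the difference of effects (-0.18), Tfam between sham ventricles (-0.0015) and Nrf1 between banded ventricles (-0.031). With the libraries that list Rn45s the LV values of Ppargc1a (-0.20), Ppard (-0.26) and Nrf1 (-0.018) reversed, as did the LV log2 ratio of Ppara to Ppard (0.17).

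Counts of all genes past the threshold moved by over 1.5 times as follows. In the RV the count was 1871, against 4592 with every library at the same sum, 810 in a fit to RV libraries, 1019 with library weights and 393 with the libraries that list Rn45s. In the LV it was 331, against 531 in a fit to LV libraries, 1489 with weights and 3 with the libraries that list Rn45s. For the difference of effects it was 482, against 1657 at the same sum and 9 with the libraries that list Rn45s. Between sham ventricles it was 469, against 1043 rescaled, 872 with quantile normalization, 981 at the same sum, 40 in a fit to sham libraries, 260 with weights and 275 with the libraries that list Rn45s. Between banded ventricles it was 190, against 427 at the same sum, 759 with weights and 4 with the libraries that list Rn45s. Counts for scalings are for 1 scale.

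Without each library in turn, 1 to 2 regulators passed in the RV, 0 to 1 in the LV, 0 to 1 for the difference of effects and 0 to 2 between sham ventricles. Over all genes the counts were 1172 to 1992, 45 to 572, 274 to 595 and 80 to 569 in that order, and 25 to 263 between banded ventricles. Values that reversed ranged from -0.32 to 0.019 for Ppargc1b and -0.16 to 0.0037 for Tfam in the RV, from -0.17 to 0.043 for Ppara and -0.076 to 0.16 for Ppard in the LV, and from -0.033 to 0.50 for Ppargc1a and -0.27 to 0.052 for Ppara in the difference of effects. They ranged from -0.077 to 0.18 for Tfam between sham ventricles, from -0.049 to 0.31 for Nrf1 between banded ventricles, and from -0.22 to 0.035 for the LV ratio of Ppara to Ppard.

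Deviations of RV and LV libraries with the same number correlated at -0.091 to 0.15. The value was over 0.1 for the first banded number alone, which was also the single one to correlate best with its own number. Correlations this low, between libraries that differ in depth and scale, cannot tell whether the same number means the same animal. With the replicate block as a fixed effect 178 genes passed for the difference of effects, 108 between sham and 12 between banded ventricles, and 0 regulators between sham ventricles. As a random effect in the banding comparisons the block changed no call of a regulator. In RV sham libraries Nrf1, Tfam and Esrrg rest on few estimated fragments, and what that depth could show was not tested. The fit to the libraries of a comparison alone does not apply to the difference of effects.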
